A study of Mus musculus with 240 samples.

Results

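HOX, PAX, sine oculis homeobox (Six4, for example) and T-box genes encode transcription factors that pattern the embryo. The set described here is every protein-coding gene of the deposited table whose symbol is that of a HOX gene of clusters a to d (Hoxa3, for example) or a numbered PAX, sine oculis or T-box symbol (Pax6, Six4, Tbx4). It holds 67 of 34623 genes: 39 HOX genes, 9 PAX genes, 6 sine oculis genes and 13 T-box genes. Their RNA was followed in oligodendrocyte precursor cells (OPCs) captured with a laser from sections of mouse brain, and in cells captured from brain tumours. Bulk groups, named CKO or WT and by days after tamoxifen began (days post induction, dpi), were compared. CKO animals had the genotype Trp53-/- Nf1-/-, 7 of them at 12 dpi and 7 at 90 dpi. Tumours at 150 dpi, of the same genotype, came from 7 animals. Wild-type (WT) animals numbered 5 at 12 dpi, 5 at 90 dpi and 6 at 150 dpi. A further 112 libraries of 10 captured CKO cells each (10-cell libraries) and 80 libraries split from pooled captured cells (pool-and-split libraries) came from 12 and 90 dpi. The labels used here do not name the Cre driver or the brain region, and every bulk sample is labelled tdT positive, with its time counted from the start of tamoxifen.

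HOX genes lie in clusters in which gene order follows the order of expression along the body axis, and in the nervous system they are known for marking hindbrain and spinal cord, while forebrain stays largely free of them. PAX proteins carry a paired domain and pattern the neural tube and eye. Sine oculis proteins act with EYA and DACH partners in muscle, kidney and sensory organ formation. T-box factors specify mesoderm, limbs, heart and some lymphocytes. HOX proteins bind DNA with partners of the PBX, MEIS and PKNOX group, Polycomb and Trithorax complexes hold HOX clusters silent or active, and retinoic acid induces the genes at the start of each cluster.

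Total counts per bulk library ran from 0.0937 M (M, 1000000 counts) to 23.2 M, with group medians from 3.47 M in WT at 12 dpi to 13.7 M in CKO at 12 dpi. Levels below are counts per 1000000 (CPM) of totals scaled by the trimmed mean of M values. Nf1 was lower in CKO animals (176 to 216 CPM at 12 dpi) than in WT (261 to 357 CPM), and the same held at 90 dpi except in the animal labelled CKO_20647, which had 302 CPM beside 274 to 343 CPM in WT. Trp53 ranges overlapped between genotypes at every time. The shallowest animal, WT_21167 at 90 dpi, held 93694 counts, so its zeros carry little information. OPC marker genes, 10 in all, summed to 4700 to 12623 CPM in tumours and 2061 to 4125 CPM in the other animals. Where a gene is lower in bulk RNA, fewer cells of a type and less RNA per cell cannot be told apart.

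Promoter sequence is shown for members with the smallest adjusted p in their family in tumours against WT (Hoxa3, Pax6 and Tbx4) and for Hoxa5, a neighbour of Hoxa3 in the Hoxa cluster that was chosen after its values were seen. Each line is the 250 bases upstream of the RefSeq start site in GRCm38.p6, 5′ to 3′ in the gene's direction, with CpG dinucleotides in capitals.
Hoxa3, chr6:52213068-52213317, minus strand: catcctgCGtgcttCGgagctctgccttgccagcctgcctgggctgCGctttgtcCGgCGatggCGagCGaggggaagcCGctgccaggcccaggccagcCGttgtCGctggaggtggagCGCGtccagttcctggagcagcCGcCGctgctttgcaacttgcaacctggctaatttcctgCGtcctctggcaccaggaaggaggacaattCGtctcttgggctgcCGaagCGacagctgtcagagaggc
Hoxa5, chr6:52204588-52204837, minus strand: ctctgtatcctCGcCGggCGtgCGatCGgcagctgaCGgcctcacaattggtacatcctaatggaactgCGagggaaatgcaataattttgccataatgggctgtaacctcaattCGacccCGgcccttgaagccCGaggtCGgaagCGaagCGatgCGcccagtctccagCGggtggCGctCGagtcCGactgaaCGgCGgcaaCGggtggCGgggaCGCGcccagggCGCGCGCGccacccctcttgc
Pax6, chr2:105668646-105668895, plus strand: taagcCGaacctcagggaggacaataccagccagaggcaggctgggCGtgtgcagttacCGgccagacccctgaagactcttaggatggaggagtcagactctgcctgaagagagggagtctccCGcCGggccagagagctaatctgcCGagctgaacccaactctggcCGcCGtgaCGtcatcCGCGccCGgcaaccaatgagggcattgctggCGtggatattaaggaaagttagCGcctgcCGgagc
Tbx4, chr11:85896515-85896764, plus strand: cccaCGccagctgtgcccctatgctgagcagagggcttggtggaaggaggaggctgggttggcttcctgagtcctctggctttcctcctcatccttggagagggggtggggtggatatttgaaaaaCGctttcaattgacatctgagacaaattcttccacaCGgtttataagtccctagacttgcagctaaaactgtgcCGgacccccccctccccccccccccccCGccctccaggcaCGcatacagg

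These windows hold 18 CpG in Hoxa3, 28 in Hoxa5, 15 in Pax6 and 6 in Tbx4. As many or more were found in 21.7%, 7.61%, 27.3% and 50.4% of the 32851 promoters of the RefSeq table. The RefSeq start of Tbx4 lies 10343 bases from the start of the gene in the deposited table and that of Hoxa3 269 bases from it, so these windows may not be the start used in the captured cells. In all, 43 of the 67 members had a promoter in the table, and they held a median of 13 CpG (2 to 35) against 6 over all promoters. A HOX with PBX motif, TGATTNAT on either strand, was present in 3 of the 43 (Hoxa2, Hoxd11 and Tbx6) and in 2.82% of all promoters. A T-box motif, AGGTGTGA, was present in 1 of the 43 (Hoxd9) and in 1.12% of all. A pair of retinoic acid receptor half-sites, AGGTCA, 5 bases apart and in the same direction, was in none of the 43 and in 0.00913% of all. A match is a run of letters and not a binding site.

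Most of the family was silent or close to it in OPCs, and a larger part of it was present in tumours. In each OPC group 8 to 15 members reached 1 CPM in at least 1 animal, and 37 did in tumours. Single animals had 3 to 9 members at 1 CPM or more in the 30 animals of the OPC groups, and the tumours had 22, 21, 25, 24, 20, 26 and 16. No tumour overlapped with an animal of another group in this count. Of the 67 members, 27 reached 1 CPM in no animal, and 24 reached it in a tumour and in none of the 30 other animals. The same counts over all genes are not given here, so these do not show a difference particular to the members. Members at 1 CPM or more in every animal of a group numbered 4 in CKO and 4 in WT at 12 dpi, 4 in CKO and 3 in WT at 90 dpi, 3 in WT at 150 dpi and 11 in tumours. Among the 11 were Hoxa2, Hoxa3, Hoxa4, Pax6, Six4, Six5, Tbx2, Tbx4 and Tbx15. By median over tumours, Hoxa9 (1.02 CPM) and Hoxa6 (1.32 CPM) lay just above 1 CPM, and Tbx21 (0.847 CPM) and Hoxd8 (0.682 CPM) just below.

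Tumours were compared with WT OPCs of the same time and with CKO OPCs at 90 dpi. Of 16349 genes that passed a filter on low counts, 46.2% changed in tumours against WT (edgeR quasi-likelihood test, Benjamini-Hochberg adjusted p under 0.05), 24.3% of all genes being higher and 21.9% lower. Of the members, 21 passed the filter, and 14 of these rose and 2 fell. Against CKO at 90 dpi the background was 49.1% (26.4% higher and 22.6% lower), and 17 members rose and 1 fell. The tumours serve in both comparisons, so these are not independent. Of the 21, 11 passed the filter through the tumours alone (among them Hoxa2, Hoxa3, Hoxa4, Hoxa5, Hoxa7, Hoxa9, Hoxa10, Six2 and Tbx4) and had to differ, so their calls add nothing to their levels. Among the 10 others, Six4, Six5 and Tbx18 rose and Pax6 and Tbx21 fell against WT, and Pax1, Six4, Six5, Tbx2, Tbx15 and Tbx18 rose and Tbx21 fell against CKO at 90 dpi. Tumour and WT animals did not overlap in 7 of the 14 risen members (6.72% of all genes tested were higher in every tumour than in every WT animal), and tumour and CKO animals did not in 9 of 17 (6.77% of all genes). All of the 7, and all of the 9 but Tbx15, passed the filter through the tumours alone. These counts cannot be set against the shares of all genes. Six4, Six5 and Tbx18, which passed without the tumours and rose against WT, overlapped with WT animals. In the other direction 0 of the 2 fallen members separated tumours from WT (8.96% of all genes) and the 1 fallen member separated them from CKO (10.5%).

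**Figure D1:**
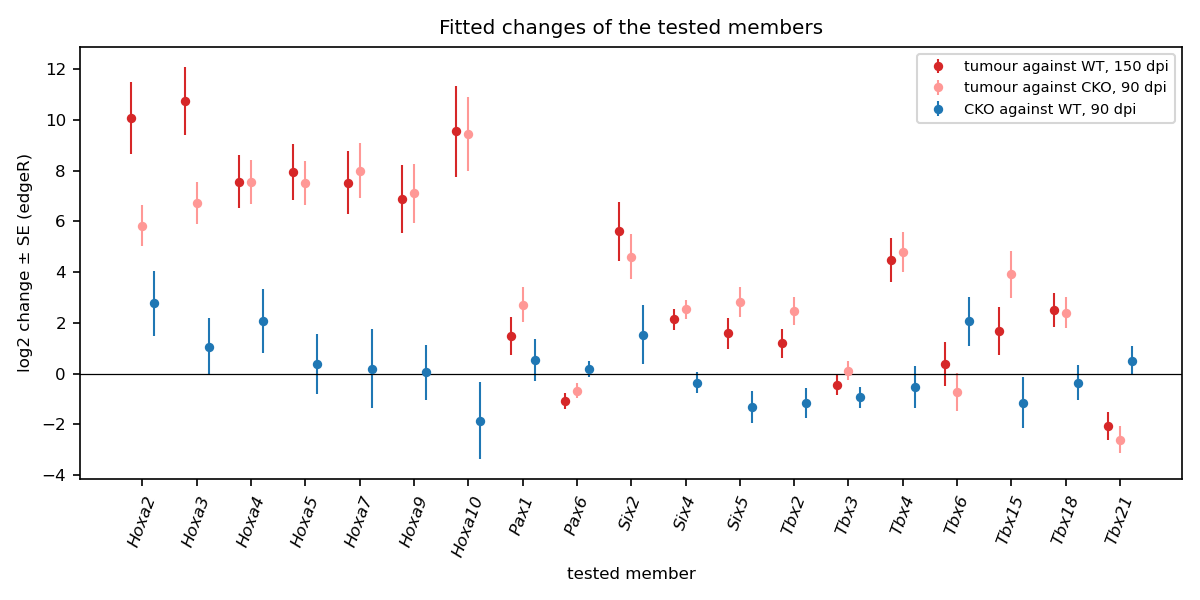
Fitted log2 change (vertical axis, point with its SE) of 19 of the 21 tested members in tumours against WT at 150 dpi, tumours against CKO at 90 dpi and CKO against WT at 90 dpi. The Hoxa members drawn lie between 5.83 and 10.76 in the tumour comparisons, Pax6 and Tbx21 lie below 0 in both, and no change of CKO against WT passed the test.

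The Hoxa cluster (chromosome 6, GRCm38) was the HOX cluster with members at 1 CPM or more in all 7 tumours. Its 11 members summed to 52.2, 213, 87.7, 80.5, 12.9, 153 and 15.4 CPM in Tumor_16713, Tumor_16839, Tumor_16840, Tumor_16844, Tumor_21256, Tumor_21349 and Tumor_21354. The highest sum among the other 30 animals was 1.90 CPM, in the animal labelled CKO_20647. Every tumour lay above every other animal, and the tumours themselves spanned a wide range.

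Hoxa2 to Hoxa5 stand toward the end of the cluster that is used in hindbrain and neck. Hoxa2, which patterns the hindbrain and the arches below it, was at 3.40, 9.70, 15.2, 6.68, 1.51, 32.7 and 5.22 CPM in the tumours in the order above. The highest other animal was the one labelled CKO_20647 with 0.550 CPM, and Hoxa2 was at least 163-fold higher in tumours than in WT at 150 dpi, with the floor at 3 counts over the group. Every tumour was thus above every other animal. Hoxa3, needed for throat organs, was at 14.3, 36.8, 9.89, 5.20, 3.66, 37.8 and 2.91 CPM in tumours, at most 0.734 CPM elsewhere, and at least 176-fold higher than in WT at 150 dpi. Its fitted log2 change was 10.76 (SE 1.35, edgeR adjusted p = 8.4e-08), a value that depends on the prior count since WT animals were at 0. Hoxa3 passed the filter through the tumours alone, so its call adds nothing to the levels.

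Hoxa4 was at 8.35, 15.5, 5.76, 3.16, 3.66, 13.7 and 1.07 CPM in tumours and at most 0.290 CPM in other animals. Tumor_16839 and Tumor_21349 were high and Tumor_21354 low in it, as in Hoxa3. Hoxa5, a factor in lung and neck development, was at 10.5, 15.5, 14.7, 10.7, 0.215, 17.5 and 1.13 CPM in tumours. Tumor_21256 lay below WT_21591, which had 0.290 CPM from 1 count, so the groups overlapped at that depth. On pooled counts the ratio to WT at 150 dpi was 234 for Hoxa4 (95% interval 41.8 to 9236) and 393 for Hoxa5 (70.5 to 15548), both resting on 1 WT count and covering counting error only. The fitted log2 change was 7.57 for Hoxa4 (SE 1.04, edgeR adjusted p = 6.8e-07) and 7.96 for Hoxa5 (SE 1.10, adjusted p = 3.6e-07). Both passed the filter through the tumours alone, so their calls add nothing to the levels.

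The next genes of the cluster, used farther back in the body, were less even across tumours. Hoxa7 was at 8.57, 34.5, 34.2, 20.0, 2.58, 35.1 and 0 CPM. Tumor_21354 had no Hoxa7 count although it had 2.91 CPM of Hoxa3 and 5.22 CPM of Hoxa2. Hoxa9, known from leukaemias, was at 0.988, 17.0, 1.02, 7.39, 0, 3.64 and 0 CPM, and Hoxa10, used in the uterus and hind limb, at 2.31, 28.7, 2.60, 9.48, 0, 7.56 and 0.0282 CPM. Tumor_21256 and Tumor_21354 were thus low or at 0 in Hoxa9 and Hoxa10, and these were also the tumours with the smallest Hoxa sums. The fitted log2 change in edgeR was 7.53 for Hoxa7 (SE 1.26, adjusted p = 6.0e-06), 6.89 for Hoxa9 (SE 1.34, adjusted p = 9.5e-05) and 9.55 for Hoxa10 (SE 1.79, adjusted p = 1.5e-04). These genes passed the filter through the tumours alone, so their calls add nothing to the levels. Without any 1 of the 5 tumours other than Tumor_21256 and Tumor_21354, Hoxa9 and Hoxa10 fell below the filter and were not tested, and the same held when the tumours and WT at 150 dpi were fitted alone.

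Hoxa6, Hoxa11 and Hoxa13 did not pass the filter. Hoxa6 reached 1 CPM in 4 tumours, with 3.23 CPM in Tumor_16844 at most, and was at least 18.4-fold higher in tumours than in WT at 150 dpi. Hoxa11 reached 1 CPM in Tumor_16844 alone (3.98 CPM). Hoxa13, the last gene of the cluster and a factor of limb tips and the lower gut, was at 51.0 CPM in Tumor_16839, 9.15 CPM in Tumor_16844, 2.79 CPM in Tumor_21354 and at most 0.329 CPM in the other tumours. In Tumor_21354 it was present while Hoxa7 and Hoxa9 were at 0, so the covered genes did not form 1 run along the cluster there. In Tumor_16839 the count came from both libraries, 231 and 148 counts.

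**Figure D2:**
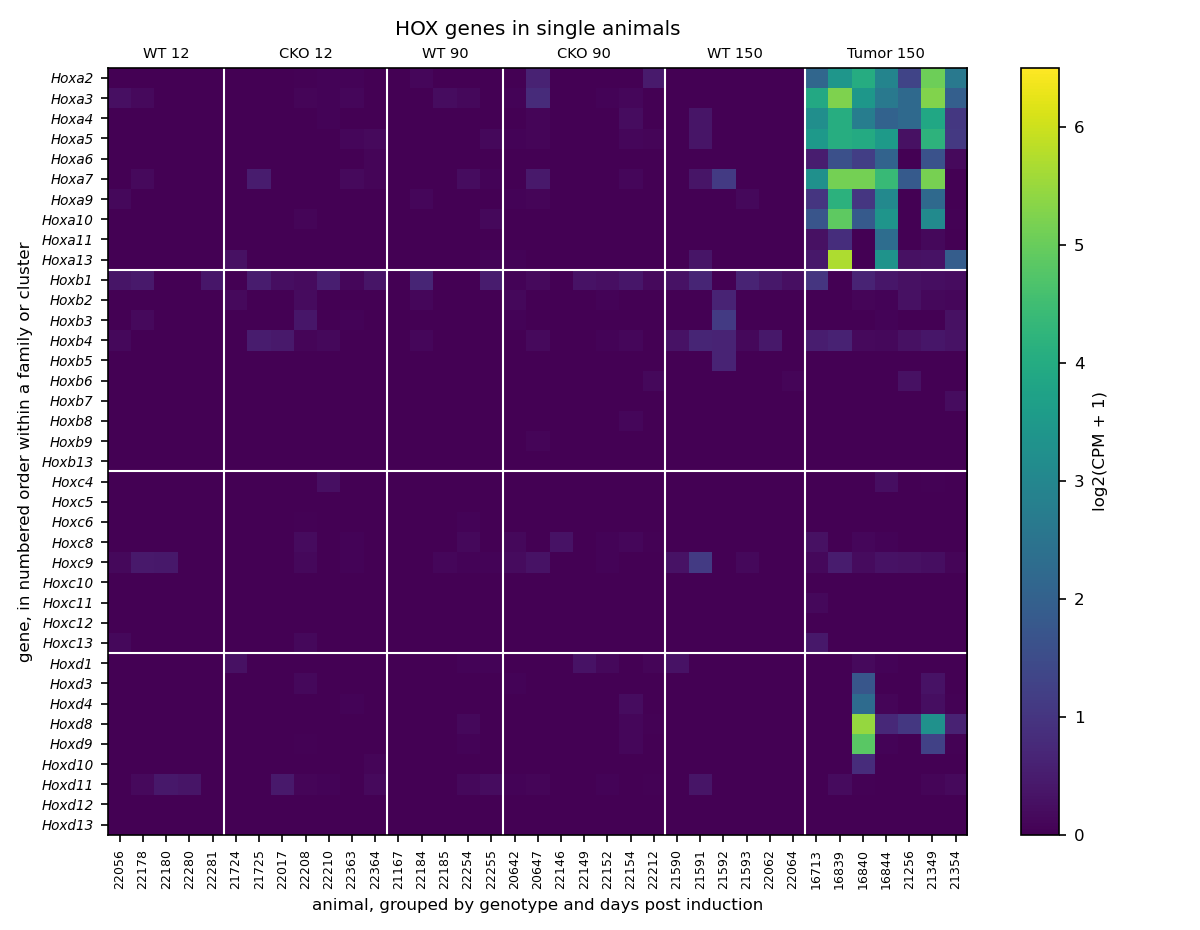
HOX genes other than 1 (rows, by cluster and number) in the 37 bulk animals (columns, grouped by genotype and dpi), colour showing log2(CPM + 1). Hoxa rows are near 0 outside tumours and unevenly lit within them, Hoxa11 and Hoxa13 in few tumours. Hoxd8 and Hoxd9 are lit mainly in Tumor_16840, and Hoxb and Hoxc rows stay near 0 in all animals.

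The other HOX clusters did not follow Hoxa. Hoxb members (chromosome 11, 96194316 to 96368256) summed to 0.503 to 1.43 CPM in tumours and Hoxc members (chromosome 15, 102921103 to 103036852) to 0.0564 to 0.769 CPM, and no gene of either reached 1 CPM in a tumour. In WT at 150 dpi Hoxb3 reached 1.13 CPM in WT_21592, where this is 2 counts, and Hoxc9 reached 1.16 CPM in WT_21591, so both rest on very few counts. The Hoxd cluster (chromosome 2, 74668310 to 74765142) was present in single tumours, summing to 78.1 CPM in Tumor_16840, close to the Hoxa sum there, and to 10.6 CPM in Tumor_21349. Hoxd8 was at 43.3 CPM in Tumor_16840, 8.73 CPM in Tumor_21349, 1.08 CPM in Tumor_21256 and at most 0.682 CPM in the other tumours, and Hoxd9 was at 27.7 CPM in Tumor_16840, 1.38 CPM in Tumor_21349 and at most 0.0359 CPM in the rest. In Tumor_16840 Hoxd3 (2.34 CPM) and Hoxd4 (3.86 CPM) also passed 1 CPM, and no other animal had them there. Both libraries of Tumor_16840 held Hoxd8 (588 and 892 counts) and Hoxd9 (501 and 447 counts).

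Several HOX genes share sequence with neighbours, which bears on these counts. Of the 67 members, 24 have exons that overlap another gene in the GENCODE annotation of this build, 18 of them on the opposite strand. The gene span of Hoxa3 holds Hoxa4, Hoxa5 and Hoxa6, and a read-through gene, Gm28308, overlaps Hoxa2 to Hoxa6. The strand setting of the counting is not given in the sources used here, so reads of a gene and its antisense partner cannot be told apart, and single Hoxa levels are uncertain to that extent. The opposite-strand gene 5730596B20Rik within Hoxa3 was at 1 CPM or more in 5 tumours and at most 0.141 CPM in other animals. Its call against WT (log2 change 8.05, edgeR adjusted p = 9.7e-05) thus adds nothing to its levels, as for the Hoxa members. Gm28308 was at most 0.760 CPM.

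Among PAX genes only Pax6, a factor of forebrain and eye progenitors, was at 1 CPM or more in all 37 animals. It ran from 37.4 through a median of 52.9 to 109 CPM in WT at 150 dpi, from 27.8 through 42.0 to 63.4 CPM in CKO at 90 dpi, and was at 11.2, 65.3, 17.0, 26.7, 57.4, 13.8 and 25.7 CPM in tumours. Tumor_16839 and Tumor_21256 lay within the WT range and the other 5 below it. The fall against WT passed the test in edgeR (log2 change −1.08, SE 0.30, adjusted p = 0.00305), and against CKO at 90 dpi it did not (−0.67, SE 0.30, adjusted p = 0.0585). It did pass there without Tumor_16839 (−0.93, edgeR adjusted p = 0.00544). The same held without any 1 of Tumor_21256, WT_21593, CKO_20647 and WT_22254, and with the deepest library of each animal. With other animals left out the edgeR adjusted p ran up to 0.168.

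Pax1, known from vertebral development, was at 0.539, 2.53 and 12.5 CPM in tumours (lowest, median and highest) and at 0.334, 0.840 and 4.35 CPM in WT at 150 dpi. Its groups overlapped and the change against WT did not pass (log2 1.47, adjusted p = 0.106, though it did without WT_21591), while against CKO at 90 dpi, where the highest animal had 1.23 CPM, it rose (2.72, SE 0.69, edgeR adjusted p = 0.00137). Pax5, a B cell and midbrain factor, was at 22.8 CPM in Tumor_21349 with 319 and 326 counts in its libraries, at 1.35 CPM in Tumor_16839 and 1.29 CPM in Tumor_21256, and under 1 CPM in every other animal. Pax3, Pax7 and Pax9 each reached 1 CPM in 1 tumour (at most 1.35 CPM), and Pax2, Pax4 and Pax8 in no animal.

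Six2 separated tumours from WT animals of the same time, and Six4 rose from a level already present in OPCs. Six2, which keeps kidney progenitors, was at 11.4, 0.808, 9.92, 4.16, 2.15, 10.3 and 2.91 CPM in tumours and at most 0.334 CPM in WT at 150 dpi, so these groups did not overlap. CKO_22017 at 12 dpi had 1.62 CPM, above the lowest tumour. Six4, a factor of muscle development, was already present in OPCs, at 4.59, 5.87 and 8.50 CPM in WT at 150 dpi and 2.38, 4.18 and 8.90 CPM in CKO at 90 dpi (lowest, median and highest). In tumours it was at 31.8, 26.5, 43.3, 12.7, 29.3, 52.1 and 7.82 CPM, with Tumor_21354 alone inside the OPC ranges. Its rise was 2.15 in log2 (SE 0.41, edgeR adjusted p = 5.2e-05) against WT and 2.54 (SE 0.38, adjusted p = 1.0e-06) against CKO at 90 dpi.

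Six5 was at 9.66, 1.48, 1.70, 11.1, 2.15, 1.20 and 5.16 CPM in tumours and at 0.567, 1.01 and 3.77 CPM in WT at 150 dpi (lowest, median and highest), with overlap. Its rise against WT (log2 1.59, SE 0.61, edgeR adjusted p = 0.0315) rested on single animals: it did not pass without any 1 of Tumor_16713 and Tumor_16844 or of WT_21592, WT_21593, WT_22062 and WT_22064, with adjusted p up to 0.1. Six3, an eye and forebrain factor, reached 1 CPM in 3 tumours (at most 2.97 CPM). Six6, of the same kind, was at 16.1 CPM in Tumor_16713, but all 147 counts were in 1 of its libraries and none in the other.

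**Figure D3:**
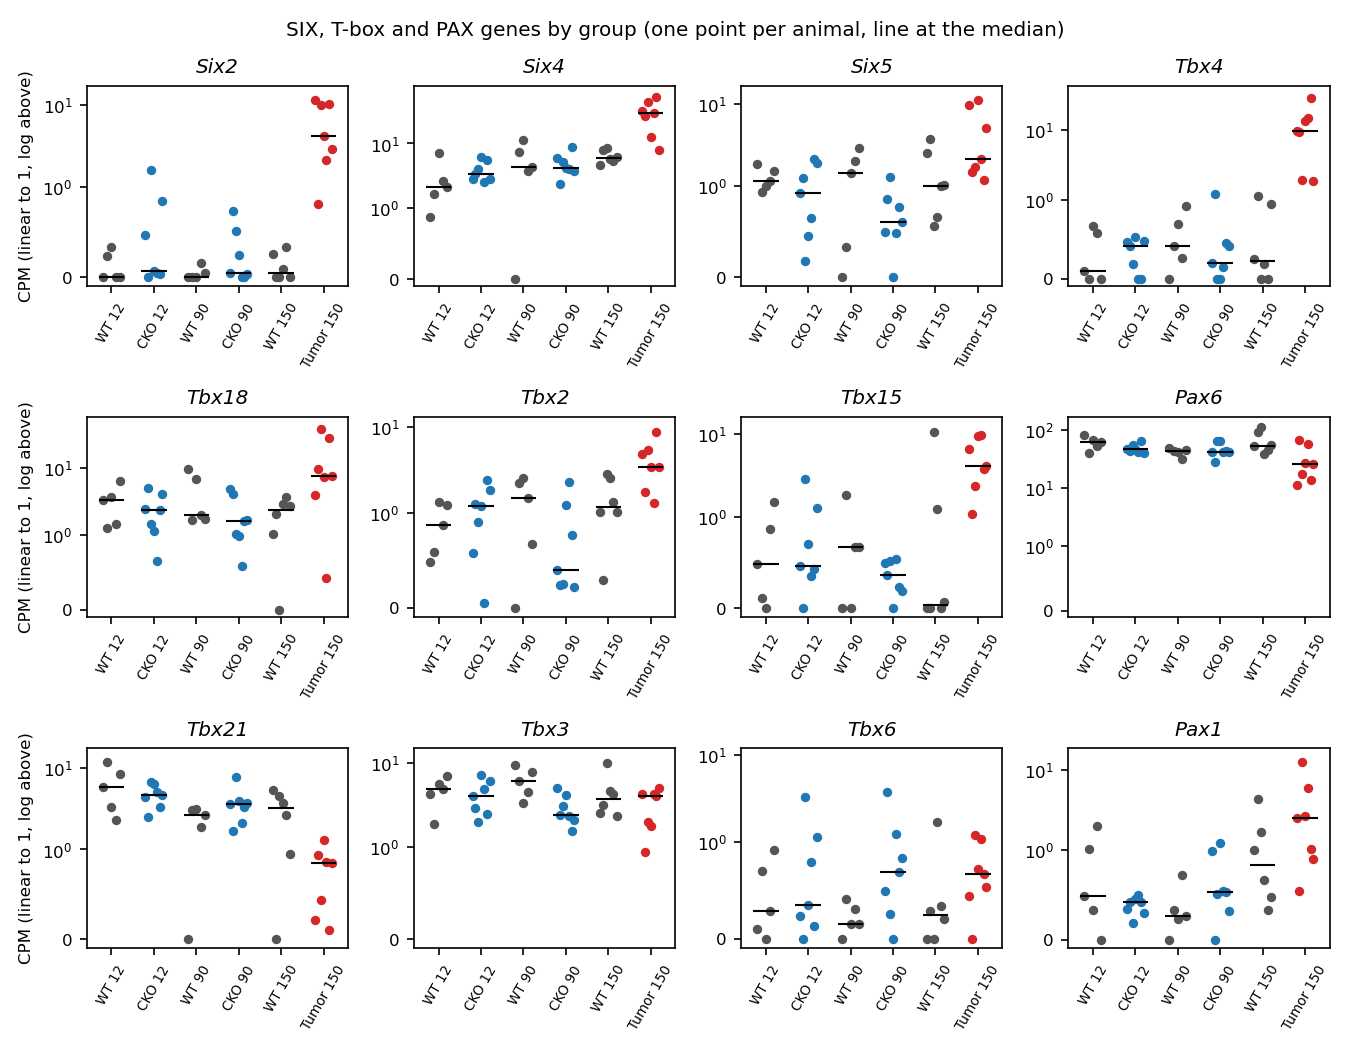
Level (CPM, vertical axis linear to 1 and logarithmic above) of 12 sine oculis, T-box and PAX genes in the 6 bulk groups, each point 1 animal and each line a group median. Tbx4 stands above the other groups in all 7 tumours, Six4 in 6 of 7 is above every WT animal at 150 dpi, and Tbx21 is lowest in tumours by median.

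Among T-box genes Tbx4 and Tbx18 rose in both tumour comparisons, Tbx2 and Tbx15 rose against CKO alone, Tbx21 fell in both, and Tbx3 and Tbx6 had no call. Tbx4, a hind limb and lung factor, was at 9.44, 9.16, 1.93, 13.1, 14.6, 27.7 and 1.89 CPM in tumours and at most 1.22 CPM in other animals, the highest of which was the animal labelled CKO_20647. All tumours were above all OPC samples (log2 change against WT 4.48, SE 0.86, edgeR adjusted p = 4.8e-05). Tbx4 passed the filter through the tumours alone, so this call adds nothing to its levels. Tbx18, a factor of heart, ureter and vessel wall cells, was at 3.95, 9.43, 37.5, 7.36, 0.430, 27.2 and 7.59 CPM in tumours and at 0, 2.34 and 3.68 CPM in WT at 150 dpi (lowest, median and highest). Tumor_21256 was inside the WT range and the other 6 above it, and Tbx18 rose in both comparisons (2.49, SE 0.67, adjusted p = 0.00241 against WT in edgeR, and 2.40 against CKO at 90 dpi).

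Tbx2, a repressor used in heart and limb, was at 1.29, 3.39 and 8.69 CPM in tumours (lowest, median and highest), at 0.290, 1.18 and 2.83 CPM in WT at 150 dpi and at 0.225, 0.399 and 2.26 CPM in CKO at 90 dpi. It rose against CKO (log2 2.47, SE 0.54, edgeR adjusted p = 2.4e-04), and against WT it did not pass (1.20, adjusted p = 0.0867), though it did in DESeq2, with no term for sex, and without CKO_22210, WT_21592 or WT_21593. Tbx15, of skeletal and muscle development, was at 1.08, 4.06 and 9.68 CPM in tumours and at most 0.539 CPM in CKO at 90 dpi, so these groups did not overlap (3.91, SE 0.93, edgeR adjusted p = 6.7e-04). Against WT at 150 dpi it did not pass (1.67, adjusted p = 0.152), where WT_21592 alone had 10.8 CPM, above every tumour. Without that animal the log2 change was 3.91 (adjusted p = 9.0e-04).

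Tbx21, which directs type 1 helper T and natural killer cells, fell. It was at 0.220, 0.943, 0.439, 1.29, 0.860, 0.106 and 0.847 CPM in tumours, at 0, 3.23 and 5.35 CPM in WT at 150 dpi and at 1.71, 3.64 and 7.94 CPM in CKO at 90 dpi (lowest, median and highest). Every CKO animal was above every tumour, and in WT 2 animals, WT_21591 at 0 and WT_22064 at 0.953 CPM, lay at or below tumour levels. The log2 change was −2.07 (SE 0.54, edgeR adjusted p = 0.00182) against WT and −2.60 (SE 0.53, adjusted p = 1.0e-04) against CKO. It fell below the filter and was not tested when tumours and WT at 150 dpi were fitted alone. T and natural killer cell markers summed to 2.29 to 25.1 CPM in tumours and 0 to 5.44 CPM elsewhere. Of the 3 tested, 0 were called against WT. Against CKO at 90 dpi 2 were higher and 0 lower, beside 26.4% and 22.6% of all genes. The part of these cells in the fall of Tbx21 was not tested.

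Tbx3, a relative of Tbx2, was at 0.943, 4.06 and 5.08 CPM in tumours and 2.32, 3.77 and 10.2 CPM in WT at 150 dpi, with overlap and no call (log2 −0.43, adjusted p = 0.41). Tbx6 of the early mesoderm had no call in either tumour comparison. Tbx5, of forelimb and heart, reached 1 CPM in 3 tumours (2.69 CPM at most), Tbx19 and Tbx22 in 1 each, and Tbx20 in WT_21591 alone. Tbx1 and Tbx10 reached it in no animal.

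**Figure D4:**
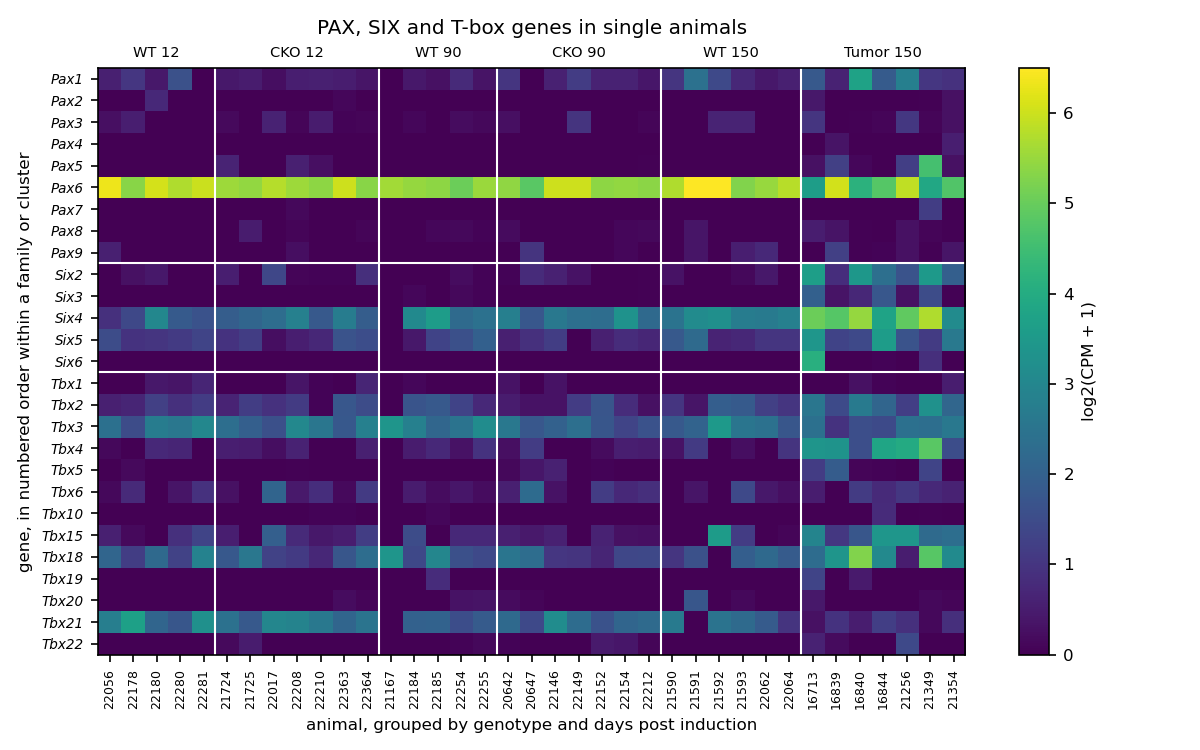
PAX, sine oculis and T-box genes other than 1 (rows, by family and number) in the 37 bulk animals (columns, grouped by genotype and dpi), colour showing log2(CPM + 1). Pax6 is bright in all animals, Six4 brighter in 6 of 7 tumours than in WT at 150 dpi, Six6 in Tumor_16713 and Pax5 in Tumor_21349.

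Outside tumours, no member passed the test between genotypes. In CKO against WT at 12 dpi 0 of 21 tested members were called, with 0 at an unadjusted p under 0.05, where 0.0183% of all genes were called and 4.85% had such a p (edgeR). At 90 dpi 0 were called and 5 had such a p, beside 0.0489% and 5.2% of all genes. Among the 5 were Hoxa2 (log2 2.77, adjusted p = 0.92), Tbx6 (2.07, adjusted p = 0.926), Six5 (−1.32, adjusted p = 0.957) and Tbx3 (−0.94, adjusted p = 0.92). Of the CKO animals at 90 dpi only CKO_20647 (9 counts) and CKO_22212 (12 counts) held Hoxa2. Tbx6 was at 3.79 CPM in CKO_20647 and at most 1.23 CPM in the other CKO animals at 90 dpi. The libraries of CKO_20647 differed from each other, as given below. DESeq2 likewise called 0 members in both comparisons, beside 18 of all genes at 12 dpi and 21 at 90 dpi.

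Over time 0 members were called from 12 to 90 dpi in CKO by edgeR, with 2 at an unadjusted p under 0.05, beside 0% of all genes called and 4.26% with such a p. In WT 0 were called from 12 to 90 dpi (1 with such a p, beside 0.00612% of all genes called and 4.86% with such a p) and 0 from 90 to 150 dpi (1, beside 0.0183% and 8.26%). The genotype effect was then compared between 90 and 150 dpi, tumours taking the place of CKO OPCs at 150 dpi. It moved up for 10 members and down for 2, beside 30% of all genes in either direction, 14.2% up and 15.8% down. Among those that moved up were Hoxa3, Hoxa5, Hoxa7, Hoxa10, Six4, Six5, Tbx2, Tbx4 and Tbx18, and those that moved down were Pax6 and Tbx21. The Hoxa members and Tbx4 passed the filter through the tumours alone, so their calls add nothing to their levels. Six4 moved by 2.50 in log2 (SE 0.59, edgeR adjusted p = 0.00113) and Tbx4 by 5.01 (SE 1.17, adjusted p = 0.00109). Six4, Six5 and Tbx21, which passed the filter without the tumours, were called here under every alternative run. So were Hoxa3 and Tbx4, whose calls add nothing to their levels under these alternatives either. Pax6 was not called with RLE factors, with the compared groups alone, or without any 1 of Tumor_16840, Tumor_21349, WT_21591, WT_21592, CKO_22146, CKO_22149, WT_22254 and WT_22255. Hoxa10 was not called in DESeq2 or without any 1 of WT_22255 and the 5 tumours other than Tumor_21256 and Tumor_21354. Calls were also absent for Hoxa5 without WT_22255, Hoxa7 without WT_22254, Tbx18 without WT_22185, and Tbx2 with the deepest libraries or without WT_22062 or WT_22254. CKO OPCs outside tumours were not analysed here at 150 dpi, so tumour and elapsed time cannot be told apart within the CKO genotype.

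The 10-cell and pool-and-split libraries hold CKO OPCs alone, and Hoxa genes were nearly absent from them. HOX counts at 12 dpi came to 546 in 15 of 56 10-cell libraries, of which 425 were Hoxd11 and 419 of those in 1 library. At 90 dpi 93 HOX counts lay in 28 of 56 libraries. Pool-and-split libraries held 119 HOX counts in 12 of 40 at 12 dpi and 137 in 30 of 40 at 90 dpi.

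Some members seen in bulk OPCs were also seen in groups of 10 cells. Pax6 had a count in 47 of 56 10-cell libraries at 12 dpi and 53 of 56 at 90 dpi, with 32.2 and 30.2 CPM over pooled counts. Six4 had one in 46 and 56 of 56, Tbx2 in 29 and 46, Tbx3 in 17 and 26, Tbx18 in 14 and 26, and Tbx21 in 10 and 16. Tbx21 and Tbx18 thus had no count in most groups of 10 cells. Others were nearly absent: Tbx15 had a count in 3 and 3 of 56, Tbx4 in 2 and 1, and Pax1 in 1 and 0. Summed into 4 sets a time, 9 members passed the filter and 0 were called between 90 and 12 dpi (edgeR, 0 at an unadjusted p under 0.05, beside 0% of all genes called and 7.13% at such a p). DESeq2 called 0 members as well, with 1 at such a p, although it called 707 of the 16706 genes it tested. The spread between sets was wide: Tbx2 was at 9.43 CPM over pooled counts at 12 dpi and 25.9 CPM at 90 dpi, with a log2 change of 1.21 (SE 0.85, adjusted p = 0.785).

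Each tumour had 2 libraries, as did 4 CKO animals, which gives a check on technical spread. Across the 67 members log2 levels in the 2 libraries of a tumour had a correlation of 0.856 to 0.988 (median 0.961). This is across genes, which are not independent replicates. Of 120 cases of a member at 2 CPM or more in a tumour, 119 had counts in both libraries, and the exception was Six6 in Tumor_16713. In the CKO animals the correlation was 0.897, 0.919 and 0.945, and 0.466 in the animal labelled CKO_20647. In that animal 1 library held 9 counts of Hoxa2, 12 of Hoxa3, 6 of Hoxa7 and 426 of Pax6, and the other 0, 0, 0 and 30, while Tbx6 had 1 and 61. Its Hoxa counts, the highest of any OPC animal, thus came from 1 library. Without this animal tumours against CKO at 90 dpi gave 17 members higher and 2 lower, Pax6 being added, and Hoxa3 stood at 8.53 in log2 in place of 6.74.

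**Figure D5:**
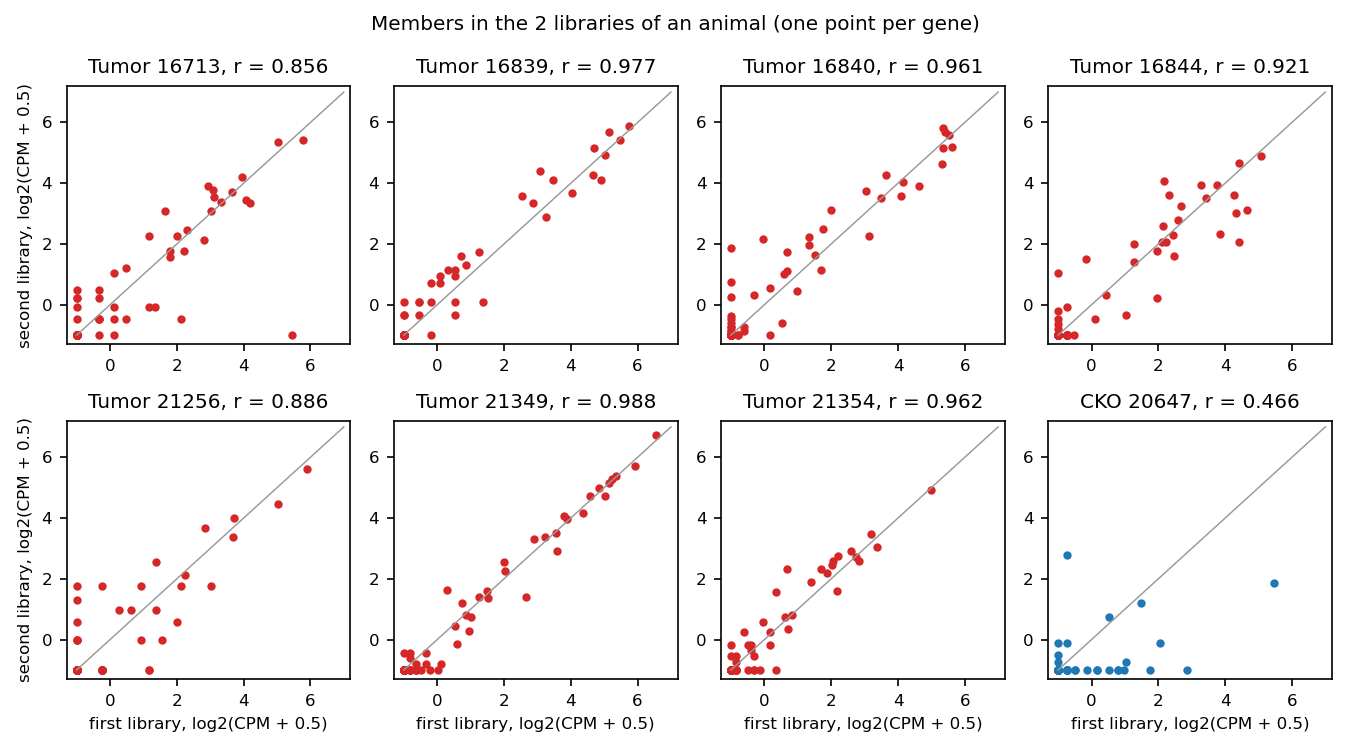
Log2(CPM + 0.5) of the 67 members in the first (horizontal) and second (vertical) library of each of the 7 tumours and of the animal labelled CKO_20647, each point 1 gene and the line marking equal values. Points of the tumours follow the line (r of 0.856 to 0.988), those of CKO_20647 scatter (r = 0.466).

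Other genes of these pathways are given by list, beside the 24.3% of all genes called higher and 21.9% called lower in tumours against WT, and 26.4% and 22.6% against CKO at 90 dpi. Of 9 HOX partners of the PBX, MEIS and PKNOX group, all tested, 0 rose and 6 fell in each tumour comparison, with a median log2 change of −0.89 against WT where the median of all genes was 0.06. Pbx3 fell by 4.52 and Meis2 by 3.85, and the 9 summed to 358 to 648 CPM in tumours and 2711 to 4742 CPM in other animals, with no overlap. Of 6 sine oculis partners 1 rose, Dach2 by 1.95, and 1 fell, Eya2 by 2.96, against WT. The T-box genes with other symbols that were tested, Tbr1, Eomes and Mga, gave no call.

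Polycomb and Trithorax regulators, 24 genes, gave 5 higher and 5 lower against WT and 5 and 6 against CKO at 90 dpi, near the shares of all genes, so the counts show nothing about the list. Kmt2b (log2 2.52), a Trithorax methyltransferase, and Ezh2 (1.47), the Polycomb methyltransferase, were among those that rose, and Kmt2a (−1.13) and Cbx7 (−1.33) among those that fell. Of 13 tested retinoic acid genes 7 rose and 2 fell against WT, with the degrading enzyme Cyp26b1 (3.26) and the synthesising enzyme Aldh1a3 (3.04) rising most and the binding proteins Crabp1 (−5.76) and Crabp2 (−2.53) falling. Of 10 tested regional factors of forebrain and midbrain 2 rose and 3 fell: En1 (10.31) and En2 (6.85), of midbrain and hindbrain, rose, and Dlx1 (−3.98) and Dlx2 (−3.76), of ventral forebrain, were among those that fell. En1 was at 5.71 to 33.3 CPM in tumours and 0 in every WT animal at 150 dpi, so its fitted change depends on the prior count.

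Markers of other cells moved between tumours and OPCs as well. Excitatory neuron markers summed to 154 to 720 CPM in tumours and at least 3597 CPM elsewhere (11135 CPM in the animal labelled CKO_20647), and inhibitory ones to 30.5 to 515 CPM against at least 1820 CPM. By calls, 1 of 8 excitatory markers was higher and 3 lower against WT (median log2 −0.05, beside 0.06 over all genes), with 0 and 6 against CKO at 90 dpi (median −2.87, beside 0.12). Of 8 inhibitory markers 1 was higher and 3 lower against WT (median −0.17), and 0 and 3 against CKO (median 0.25), so their sum and median differ in direction against CKO. Microglia and macrophage markers gave 6 of 8 higher against WT, and fibroblast and meningeal markers 6 of 8 higher, with medians of 2.12 and 2.30 in log2. Fibroblast and meningeal markers summed to 483, 15.9, 51.3, 60.0, 18.7, 20.0 and 381 CPM in the tumours in the order above. Against WT, oligodendrocyte markers gave 1 higher and 5 lower of 8, astrocyte markers 3 and 1 of 6, endothelial markers 0 and 1 of 6, pericyte and smooth muscle markers 1 and 4 of 8, and skeletal muscle markers 1 and 1 of 3 tested, summing to 3.15 to 21.2 CPM in tumours. The part of these cells in the members' levels was not tested.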

How the data were processed

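RNA of laser-captured cells was sequenced in 240 libraries. The deposited values are expected counts per gene, made by the authors with RSEM and Bowtie2 on GRCm38 per the submitters' processing notes, with no version given. Per the labels' protocols, T7 transcription amplified the bulk RNA and PCR the small libraries, so counts are not independent molecules, and intervals and floors cover counting error only. The labels number the animals but do not give litter or batch.

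Expected counts were rounded. The 48 bulk libraries were summed to 37 animals (11 had 2), and the 112 10-cell libraries to sets that share time, sex and label number (14 each). After filterByExpr (at least 10 counts, 15 in total) and TMM scaling, genes were tested with edgeR 4.0.16 (R 4.3.3) by quasi-likelihood, with sex as a covariate and all 37 animals in 1 fit, and adjusted by Benjamini-Hochberg over all genes tested. Common biological coefficients of variation were 0.418 in bulk and 0.955 in 10-cell sets. Alternatives were DESeq2 1.42.0, RLE factors, no filter, no term for sex, only the deepest library per animal, a fit of the compared groups, other CPM thresholds and each animal left out. The scripts were tested on simulated data.

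The members, lists and tests were chosen with earlier results of these data known. Values of single animals are given for members called in any contrast or at 1 CPM or more in every animal of a group, 20 in all of which 2 are not reported here, and from a list up to 2 called genes with the strongest rise and 2 with the strongest fall are named. Members below these rules were named after their values were seen. Coordinates are those of the deposited table. Promoters and their start sites come from RefSeq (GRCm38.p6).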

Additional observations from a re-analysis of the deposited data

Results flagged for a closer look

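Values of 20 members in groups of 4 to 10 animals were checked for a sample apart from the rest of its group, 50 pairs of gene and group in all, of which chance flags about 1 in 20. Hoxa7 in Tumor_21354 was at 0 CPM while the other 6 tumours held it. Tbx2 in CKO_22210 at 12 dpi was at 0.0498 CPM, below the other 6 CKO animals. Tbx21 in WT_21167 at 90 dpi was at 0 CPM, in the animal with 93694 counts.

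The effect of genotype differed between 90 and 150 dpi for 12 members by the interaction test in edgeR (adjusted p under 0.05). Among them the change in log2 was 11.41 for Hoxa10, 9.69 for Hoxa3, 7.58 for Hoxa5, 7.35 for Hoxa7, 2.50 for Six4, 2.90 for Six5, 2.85 for Tbx18, 2.36 for Tbx2 and 5.01 for Tbx4. It was −1.26 for Pax6 and −2.58 for Tbx21. The Hoxa members and Tbx4 passed the filter through the tumours alone, so their calls add nothing to their levels. For Hoxa10 at 0 in WT at 150 dpi and in CKO at 90 dpi, and for Hoxa3 at 0 in WT at 150 dpi, the size depends on the prior count. DESeq2 did not call Hoxa10, and neither did edgeR without any 1 of 6 animals. Pax6 was not called with RLE factors, with the compared groups alone, or without any 1 of 8 animals.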

How the results depend on the processing

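With no filter on low counts 26 members (24 higher and 2 lower) were called in tumours against WT and 29 (28 and 1) against CKO at 90 dpi. DESeq2 called 21 and 26 members, and the compared groups alone 12 and 14. In the latter Six5 against WT was at 1.69 (edgeR adjusted p = 0.0693). The other lost members (Hoxa9, Hoxa10 and Tbx21 against WT, Hoxa5, Hoxa7, Hoxa9 and Hoxa10 against CKO) fell below the filter. Over all genes, calls against WT and CKO numbered 7589 and 8415 with no filter, beside 7556 and 8023 in the main fit. They numbered 8131 and 8881 in DESeq2, 5187 and 6347 with the compared groups alone, and 7798 and 8455 with RLE factors. RLE factors gave 16 and 18, moved the median log2 change of all genes by 0.153 and 0.166, and made the share of higher calls among all genes 62.1% and 63.5%, against 52.6% and 53.8% with TMM and 62.5% and 64.3% in DESeq2. At 2 CPM in place of 1 CPM the members in every animal numbered 2 in WT at 12 dpi, 4 in tumours and 2 in CKO at 90 dpi, and members in tumours alone numbered 22 (18 at 0.5 CPM). With each animal left out, calls ran from 13 to 17 against WT, 16 to 20 against CKO at 90 dpi, 9 to 14 for the change of the genotype effect and 0 to 0 in the other contrasts, and members in every WT animal at 90 dpi from 3 to 5, the 5 without WT_21167. In the same fits calls over all genes ran from 6972 to 7884 against WT and from 7685 to 8174 against CKO. For the change of the genotype effect they ran from 4349 to 5378. Values of single members under alternatives were tallied in the tumour comparisons. With an animal left out only the lowest and highest log2 change of a member entered, and a fit that did not test it gave no value. Over all fits with an animal left out, the call against WT changed in 6 for Six5, 3 for Tbx2, and 1 each for Pax1 and Tbx15. Against CKO at 90 dpi it changed in 5 for Pax6. The tally covers all 21 tested members, and the 11 that passed the filter through the tumours alone had to differ. Their kept calls enter the count below but add nothing to their levels. Of the 326 values tallied, 313 kept direction and call, 2 lost a call, 7 gained one and 4 reversed. Those were Tbx3 in tumours against CKO, not called at 0.12, at −0.0099 with the deepest libraries and −0.0087 to 0.32 with an animal left out (lowest without Tumor_21354), and Tbx6, not called at −0.71, at 0.49 with the deepest libraries and −0.92 to 0.14 with an animal left out (highest without CKO_20647). The cause was not tested. In the 10-cell sets the replicate block of sex and number gave 0 calls (1 at an unadjusted p under 0.05), and no other alternative called a member. Same-numbered sets had correlations of −0.033, −0.037, −0.018 and 0.020 in their deviations. These few values across genes cannot show what such sets share, and the labels do not say what the number is. Depth limits the low members: in WT_21592 2 counts make 1.13 CPM, and WT animals at 0 allow a level up to the floor of 3 counts over the group.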
